A study of Mus musculus with 8 samples.

Results

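Cdkn2a and Cdkn2b lie next to each other on mouse chromosome 4. They were examined in a 60 kb window of the mm9 assembly, chromosome 4 from 88910001 to 88970000, with 300 kb on each side. The window was set by gene position, with earlier results of these data known, and its edges are approximate. In each of 8 lists of H3K27me3 islands, 1 island overlapped it, which makes 8 islands out of 107140 in all lists. An island is a stretch of the genome that the authors' analysis called enriched for the mark.

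The livers came from males of the outbred CD-1 stock that were 7 weeks old. Mice were treated with TCPOBOP, an agonist of the nuclear receptor CAR, at 3 mg/kg or with corn oil holding 1% DMSO as vehicle, and tissue was collected 3 h later. All animals were wild-type, and chromatin was prepared from individual livers, so the replicates were separate animals. Whole liver was used, so hepatocytes and other liver cells were measured together, and marking in a share of the cells cannot be told apart from weaker marking in all. Chromatin immunoprecipitation of H3K27me3 gave 3 vehicle and 3 TCPOBOP libraries from fragments of 600 to 1100 bp. The ChIP samples of replicate 1 of each treatment gave 1 further library each, from fragments over 1100 bp, so these share their animal with a library of the first kind. The sample titles call these longer fragments digested. The sample records give a digested length of 200 bp for them and 500 bp for the fragments of 600 to 1100 bp. The description labels of all 8 libraries carry the same run and lane code. The lists of 600 to 1100 bp held 6295 to 14748 islands over 174 to 340 Mb, and those of fragments over 1100 bp held 17577 and 22077 islands over 654 and 676 Mb. The lists hold no read counts, so the depth behind each value is unknown. The window over Alb, the hepatocyte gene for serum albumin, lay under no island in any list, and that over the HoxA cluster, a classical Polycomb target, was 100% covered in all 8.

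H3K27me3 is laid down by Polycomb repressive complex 2 and is found over silent developmental and cell cycle genes. Cdkn2a encodes 2 unrelated proteins from separate first exons, p16INK4a, which inhibits the kinases CDK4 and CDK6, and p19ARF, which protects p53 by binding MDM2. Cdkn2b encodes p15INK4b, a second inhibitor of CDK4 and CDK6. The locus is a well-known target of Polycomb in dividing and young cells, and it is expressed during senescence, when cells stop dividing for good.

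In the RefSeq gene order of assembly GRCm38.p6 the protein-coding neighbours are Mtap, the gene for a methionine salvage enzyme, below Cdkn2a, and Dmrta1, the gene for a DM domain transcription factor, above Cdkn2b. No other protein-coding gene lies between Cdkn2a and Cdkn2b, and the noncoding gene Gm12610 starts between them. No mm9 annotation was used, so the positions of these genes under the islands are approximate. The sequences that follow are the 250 bases before each RefSeq start in GRCm38.p6. They are shown because the 3 starts of the locus differ widely in CpG content. They are written 5′ to 3′ on the strand of the gene, with CpG dinucleotides in capitals. Positions given with them are GRCm38.p6 and are not comparable with the mm9 positions of islands.
Cdkn2a, upstream start, used for p19ARF, chr4:89294620-89294869, minus strand: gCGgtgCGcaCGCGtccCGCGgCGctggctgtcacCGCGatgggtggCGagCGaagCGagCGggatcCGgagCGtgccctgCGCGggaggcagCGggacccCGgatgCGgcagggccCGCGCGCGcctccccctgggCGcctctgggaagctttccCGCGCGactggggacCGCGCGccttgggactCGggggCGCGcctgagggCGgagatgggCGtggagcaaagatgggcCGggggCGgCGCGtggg
Cdkn2a, downstream start, used for p16INK4a, chr4:89282193-89282442, minus strand: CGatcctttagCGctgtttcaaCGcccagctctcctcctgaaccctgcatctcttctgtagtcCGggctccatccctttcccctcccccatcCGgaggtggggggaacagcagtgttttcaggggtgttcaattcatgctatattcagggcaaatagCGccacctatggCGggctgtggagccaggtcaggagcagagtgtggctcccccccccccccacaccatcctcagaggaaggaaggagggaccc
Cdkn2b, chr4:89311033-89311282, minus strand: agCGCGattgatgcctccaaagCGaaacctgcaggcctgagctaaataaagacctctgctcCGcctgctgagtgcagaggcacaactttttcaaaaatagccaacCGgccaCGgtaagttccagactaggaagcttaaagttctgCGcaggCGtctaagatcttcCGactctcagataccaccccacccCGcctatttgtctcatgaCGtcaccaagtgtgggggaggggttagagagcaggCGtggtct
Mtap, the neighbour shown for contrast, chr4:89137120-89137369, plus strand: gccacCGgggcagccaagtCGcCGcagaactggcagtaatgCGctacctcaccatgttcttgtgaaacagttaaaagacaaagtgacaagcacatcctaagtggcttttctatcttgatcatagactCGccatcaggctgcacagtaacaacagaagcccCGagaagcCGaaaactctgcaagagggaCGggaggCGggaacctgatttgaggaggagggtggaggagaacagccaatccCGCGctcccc

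The p19ARF start was preceded by 40 CpG and a GC content of 78.4%. Of 32841 RefSeq promoter windows of this length, 1.31% held as many CpG, and the median was 6. The p16INK4a start was preceded by 7 CpG at a GC content of 60%, a number that 46.3% of promoter windows reached. The Cdkn2b start had 12 CpG at 53.6% GC, reached by 33.5%. The Mtap start had 11 CpG at 54.4% GC, reached by 35.6%. The CpG content of Mtap was close to that of Cdkn2b. The flank that holds Mtap by general knowledge of the locus is described further on. Any link between CpG content and islands was not tested. The letters of 250 bases describe the DNA and say nothing of what is bound there.

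Cdkn2a and Cdkn2b lay under a block of H3K27me3 about 50 kb long that had nearly the same edges in every liver, with vehicle and with TCPOBOP. In vehicle replicate 1 the island ran from 88911601 to 88962000. In vehicle replicate 2 it ran from 88911201 to 88961600, and in vehicle replicate 3 from 88911201 to 88962000. These 3 livers thus differed at each edge by no more than a 400 bp window, the unit in which islands were called. With TCPOBOP the island ran from 88911201 to 88961600 in replicate 1, from 88911201 to 88962000 in replicate 2 and from 88911601 to 88962000 in replicate 3. The same 3 pairs of edges therefore occurred once in each treatment. Fragments over 1100 bp placed the island from 88910801 to 88962000 in the vehicle liver and from 88911201 to 88962000 in the TCPOBOP liver. The stretch from 88911601 to 88961600, 50 kb long, was covered in all 8 lists.

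**Figure D1:**
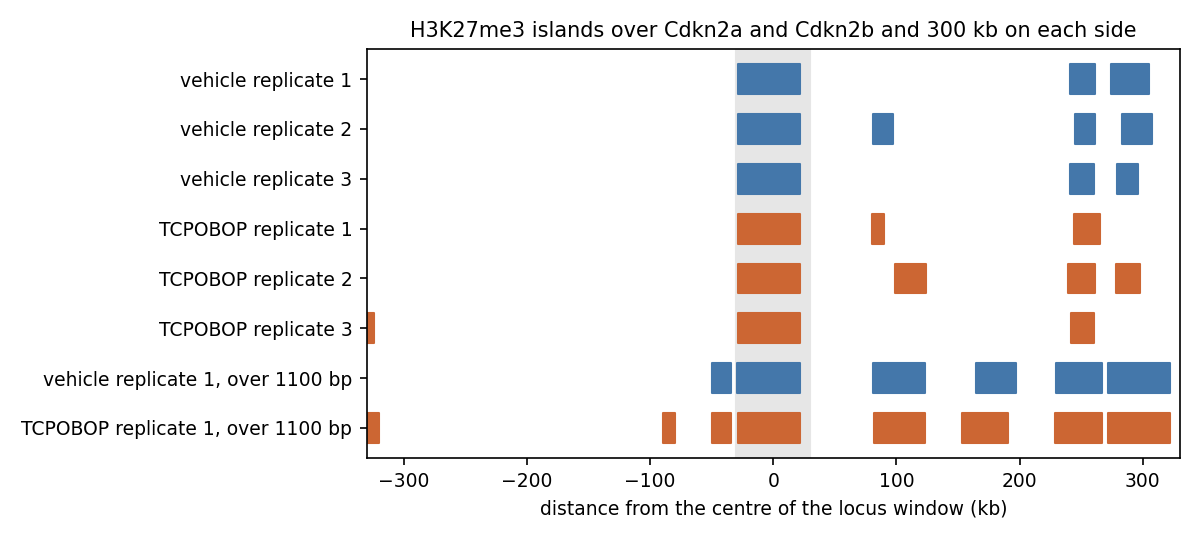
Islands of each of the 8 lists (bars; vehicle in blue, TCPOBOP in orange) by distance in kb from the centre of the locus window, which is shaded; islands that reach past the region are drawn to its edge. The block over Cdkn2a and Cdkn2b, 50.4 to 51.2 kb wide, has nearly the same edges in all 8 lists, while the islands above it vary and the side below it is almost empty.

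Vehicle livers had a locus island of 50.5 ± 0.231 kb (SD, n = 3) and TCPOBOP livers 50.5 ± 0.231 kb (SD, n = 3), a difference of 0 kb (two-sided exact permutation p = 1). Islands covered 84.0, 84.0 and 84.7% of the window with vehicle and 84.0, 84.7 and 84.0% with TCPOBOP (means 84.2 ± 0.385%, SD, n = 3 each). The difference was 0 percentage points, and the treatments overlapped (exact permutation p = 1, adjusted over 5 windows 1). With 3 livers against 3 the smallest p of this test is 0.1, so no difference of cover could pass 0.05. Among 43893 tiles of 60 kb over the chromosomes, 1.56% had all 3 vehicle livers above all 3 TCPOBOP livers, and 0.478% showed the opposite. Over the 16979 tiles with an island in at least 1 of the 6 livers these shares were 4.03 and 1.24%. None of the 5 windows examined here, which are the locus, its lower and upper parts and both flanks, separated the treatments in either direction. Cover does not measure the amount of the mark inside an island.

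The lower part of the window, where Cdkn2a lies (88910001 to 88945000), was covered over 95.4, 96.6 and 96.6% with vehicle and 96.6, 96.6 and 95.4% with TCPOBOP. The upper part, where Cdkn2b lies (88945001 to 88970000), was covered over 68.0, 66.4 and 68.0% with vehicle and 66.4, 68.0 and 68.0% with TCPOBOP. The groups overlapped in both parts and their means did not differ (exact permutation p = 1 for each, adjusted over 5 windows 1). The lower cover of the upper part came from its last 8.0 to 8.4 kb, beyond the end of the island. No list broke the island between the genes, so within these calls Cdkn2a and Cdkn2b shared 1 domain. Islands of a list lay at least 2800 bp apart, so a shorter unmarked stretch would not show as a break.

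The locus island stood high in every list. By the authors' score, which gives the strength of an island within its own library, it ranked 306 of 10057, 145 of 14748 and 114 of 12430 islands in vehicle replicates 1, 2 and 3. With TCPOBOP it ranked 187 of 13759, 191 of 10197 and 171 of 6295 in replicates 1, 2 and 3. It thus lay within the first 3.04, 0.983 and 0.917% of the vehicle lists and the first 1.36, 1.87 and 2.72% of the TCPOBOP lists. The mean rank was 1.65 ± 1.21% in vehicle livers (SD, n = 3) and 1.98 ± 0.685% in TCPOBOP livers (SD, n = 3). They differed by 0.335 percentage points, which was smaller than the spread between livers (exact permutation p = 0.6). The sign of this difference turned without vehicle replicate 3 (-0.030), without TCPOBOP replicate 3 (-0.0316) and at equal covered length (-1.41), and it was 1.03 without vehicle replicate 1, 0.00299 without vehicle replicate 2 and 0.647 without TCPOBOP replicate 1. In the lists of fragments over 1100 bp it ranked 1090 of 17577 with vehicle and 1036 of 22077 with TCPOBOP, the first 6.20 and 4.69%. On chromosome 4 alone it ranked 27, 15 and 11 with vehicle and 17, 22 and 16 with TCPOBOP, in lists of 399 to 942 islands on that chromosome.

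A long island can gain score from its length, so score per kb was ranked as well. Per kb the locus island lay within the first 2.35, 1.51 and 5.74% of the vehicle lists and the first 4.16, 1.98 and 6.64% of the TCPOBOP lists. It scored 21.2, 24.4 and 12.8 per kb with vehicle, where the median islands of those lists scored 6.62, 6.65 and 5.76 per kb. With TCPOBOP it scored 15, 15.4 and 9.67 per kb, against list medians of 5.88, 5.63 and 5.01. Scores are relative to each library, so these values are compared only within a list, where the locus was above the median in each. By width it stood at 14.6, 3.89 and 1.73% of the vehicle lists and 2.78, 7.53 and 5.83% of the TCPOBOP lists. Its width hardly varied, so the order by width followed the widths of the other islands, whose median was 26.8 kb in vehicle replicate 1 and 12.8 kb in vehicle replicate 3.

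**Figure D2:**
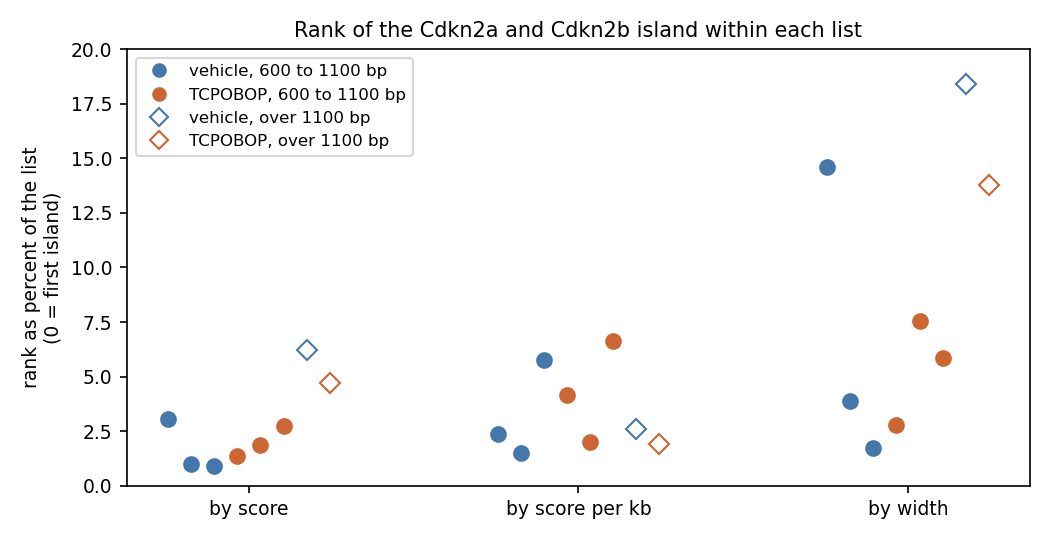
Rank of the Cdkn2a and Cdkn2b island within each list, as a percent of the islands of that list (0 is the first island), by score, by score per kb and by width. Each point is a library, with circles for 600 to 1100 bp and open diamonds for over 1100 bp. By score the 6 livers lie between 0.917 and 3.04% and the treatments overlap.

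The agreement of the edges was set against other regions. Merging the islands of the 6 libraries of 600 to 1100 bp gave 14560 regions, of which 922 held exactly 1 island from each library. In these 922 regions the start moved by a median of 9600 bp between libraries and the end by 9600 bp. At Cdkn2a and Cdkn2b each edge moved by 400 bp. Only 4 of the 922 regions (0.434%) had both edges within 400 bp, the locus included. The other 3, named after their values were seen, were neighbours on chromosome 2, at 77797201 to 77802000, 77808001 to 77835600 and 77842001 to 77850400, with median widths of 4.80, 27.6 and 8.40 kb. Of the 19 regions with a median width at least that of the locus, 50.4 kb, the locus was the only one with both edges within 400 bp. The next of these, a region of 97.0 kb on chromosome 19 (44299201 to 44396800), moved by 800 bp at its start and 400 bp at its end. In the other 18 the larger of the 2 ranges was 800 to 25600 bp, with a median of 17600 bp. Both limits, 400 bp and 50.4 kb, are the locus's own values, so the locus meets them by construction. Regions split in, or missing from, any of the 6 lists were not compared.

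As a description without a test, median edge ranges were smaller in the regions strongest per kb than over all 922 regions. In 82 of the 922 regions the island was in the first 10% by score per kb in all 6 lists, a limit set after the locus values were seen. In these 82, the locus among them, the median range was 6000 bp at the start and 5000 bp at the end, and the same 4 regions held both edges within 400 bp. The part of strength in the agreement at the locus was not tested. Leaving out 1 library in turn gave 4 to 7 regions within 400 bp, the locus among them each time. The count was 7 of 1129 without TCPOBOP replicate 1 and 7 of 1133 without TCPOBOP replicate 2. With 1 library left out, 1109 to 1653 regions were compared. Between 1 and 4 of those within 400 bp lay outside chromosome 2, the locus included.

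**Figure D3:**
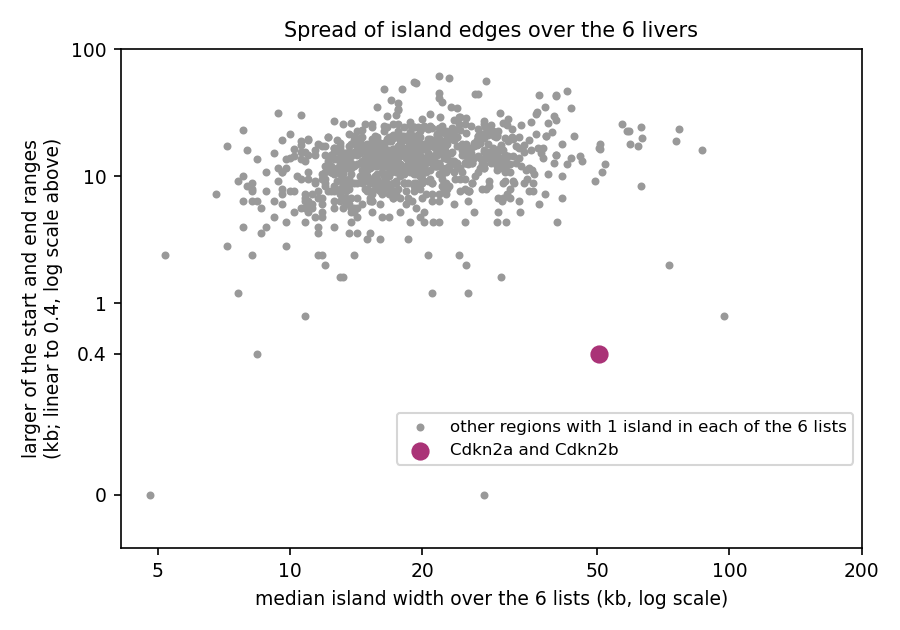
Larger of the start and end ranges over the 6 libraries of 600 to 1100 bp (kb; linear to 0.4, log scale above) against median island width (kb, log scale), for the 922 regions with exactly 1 island from each library. The locus, at 50.4 kb and a range of 400 bp, lies below the other wide regions.

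Lists were also compared pair by pair with the Jaccard index, which is the shared covered length as a fraction of the joint one. In the locus window it was 0.984 to 1 over the 15 pairs of livers. Each list has 1 island there, so this restates the edges given above. Over all chromosomes, where list sizes also differ, the index was 0.333 to 0.494 for these pairs. Pairs of the same treatment had a median of 0.992 in the window, and so did pairs of different treatments. In the upper flank the index ranged from 0.214 to 0.717, so the livers that shared the block over Cdkn2a and Cdkn2b shared less of what lay beside it. A high and even cover was uncommon among 60 kb tiles. The tiles were placed so that the locus window is a tile, while other tiles can cut a domain at any place. Both limits below are the locus's own values, so the shares describe the tiles and test nothing. Of 43893 tiles, 130 (0.296%) were covered over at least 84.0% in all 6 livers, the lowest value of the locus. Of 5251 tiles with an island in all 6 livers, 24 (0.457%) varied between livers by no more than the 0.667 percentage points of the locus, against a median of 39.3.

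Below the locus, on the side of Mtap, islands were nearly absent from the lists of 600 to 1100 bp. The lower flank was covered over 0, 0 and 0% with vehicle and 0, 0 and 2.0% with TCPOBOP (exact permutation p = 1, adjusted over 5 windows 1). The 2.0% in TCPOBOP replicate 3 was the end of an island at the far margin, from 88582001 to 88616000. From 88616001 to 88911200, 295 kb, none of the 6 livers had an island. The distance from the locus island to the next one below was 305, 382 and 302 kb with vehicle and 308, 306 and 296 kb with TCPOBOP.

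Fragments over 1100 bp showed a second, smaller island on this side. It ran from 88890001 to 88906000, 16.0 kb, in both lists and ended 4.80 kb below the locus island in the vehicle liver and 5.20 kb below it in the TCPOBOP liver. By score it ranked 6059 of 17577 with vehicle and 6181 of 22077 with TCPOBOP, far behind the locus island of the same lists. None of the 6 lists of shorter fragments held an island there, including those of the same 2 ChIP samples. Those 2 lists covered 340 and 248 Mb in all, against 654 and 676 Mb for the longer fragments of the same ChIP samples. List size, fragment class and digested length cannot be told apart. The TCPOBOP list of fragments over 1100 bp had 2 more islands in this flank, at 88604401 to 88619600 and at 88850801 to 88860000, and the flank was covered over 5.33% with vehicle and 11.6% with TCPOBOP.

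Above the locus, on the side of Dmrta1, a free stretch was followed by scattered islands. From 88962001 to 89020400, 58.4 kb, none of the 8 lists had an island. A stretch of 15.2 kb from 89185201 to 89200400 was then covered in all 8 lists. It lay 223.6 kb above the shared end of the locus block and is the only other stretch of the region shared by all lists. In the GRCm38.p6 order of gene starts, the pseudogene Gm12608 is the gene listed between Cdkn2b and Dmrta1. The island over this stretch was 19.6, 15.6 and 19.2 kb wide with vehicle and 20.8, 21.6 and 18.8 kb with TCPOBOP. Its score ranked at 40.8, 12 and 9.67% of the vehicle lists and 11.4, 20.8 and 25.1% of the TCPOBOP lists, so the treatments overlapped and the island stood behind the locus island in each list. Its start moved between 89179601 and 89185201 and its end between 89200400 and 89205200 among the 6 livers.

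Other islands of the upper flank came and went between livers. Near 89020401 to 89063600, 1 of 3 vehicle and 2 of 3 TCPOBOP livers had an island, while both lists of fragments over 1100 bp had 1, at widths of 42.0 and 41.6 kb. Near 89214001 to 89247600, 3 of 3 vehicle livers and 1 of 3 TCPOBOP livers had an island. The upper flank as a whole was covered over 16.9, 18.7 and 12.1% with vehicle and 10.0, 21.7 and 6.27% with TCPOBOP. Vehicle livers averaged 15.9 ± 3.38% (SD, n = 3) and TCPOBOP livers 12.7 ± 8.07% (SD, n = 3). The difference, -3.24 percentage points, was less than the spread among the TCPOBOP livers (exact permutation p = 0.6, adjusted over 5 windows 1). The difference was -0.0444 without TCPOBOP replicate 3, -1.87 without vehicle replicate 2, -1.91 without TCPOBOP replicate 1, -5.13 without vehicle replicate 3 and -7.78 without TCPOBOP replicate 2. It changed sign to 1.02 with all lists at equal covered length and to 5.87 in a flank of 100 kb. Fragments over 1100 bp covered 54.1% of the flank with vehicle and 56.0% with TCPOBOP.

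The pathway that Cdkn2a and Cdkn2b act in was examined in 15 further windows of 60 kb, each centred on the approximate mm9 position of a gene. Such a window also holds neighbouring genes, so its cover was read together with that of its middle 20 kb. In 7 of the 15 windows all 6 livers had an island, in 5 none of the 8 lists had one, and in 3 the livers differed. Ccnd1, E2f1 and Trp53 are among those 7, but their middle 20 kb had an island in 5, 5 and 0 of the 6 livers. Of all 43893 tiles, 5251 (11.96%) had an island in all 6 livers and 38.7% in at least 1. The tiles run over all chromosomes, with or without genes, while the 15 windows were placed on genes, so the shares have unlike bases. None of the 15 separated the treatments in either direction, where 1.56 and 0.478% of all tiles did, and 4.03 and 1.24% of the 16979 tiles with an island in at least 1 liver.

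Among the other INK4 inhibitors, which act on the same kinases, the Cdkn2c window lay under no island in 5 of 6 livers and was covered over 13.3% in TCPOBOP replicate 1. The middle 20 kb of the Cdkn2c window was covered over 40% in that liver and 0% in the other 5. The Cdkn2d window was covered over 34.7, 32.0 and 21.3% with vehicle and 24.7, 0 and 0% with TCPOBOP, and the groups overlapped. Its middle 20 kb was covered over 4.0% in vehicle replicate 1 and 0% in the other 5 livers, so the islands lay mostly outside its middle. Of the CIP/KIP inhibitors, which bind a wider range of cyclin-dependent kinases, Cdkn1b had no island in any list. The window of Cdkn1a, a target of p53, was covered over 68.7% in vehicle replicate 1 and 0 to 24.7% in the other 5 livers. It had 0% in both lists of fragments over 1100 bp. Its middle was covered over 74.0% in vehicle replicate 1, 44.0% in TCPOBOP replicate 1 and 0% in the other livers. The window of Cdkn1c, an imprinted gene expressed from the maternal copy, was covered over 70.0, 64.0 and 56.7% with vehicle and 67.3, 64.7 and 64.0% with TCPOBOP. Its middle was covered over 80.0 to 100% in the 6 livers.

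The RB arm is the set of proteins through which the INK4 inhibitors act. Rb1, which encodes the retinoblastoma protein, and Cdk6 had no island in their windows, which lie inside these long genes and leave out their starts. The Cdk4 window was covered over 74.7, 72.7 and 50.7% with vehicle and 74.0, 74.7 and 60% with TCPOBOP, and its middle over 46.0 to 84.0% in the 6 livers. In the lists of fragments over 1100 bp the Cdk4 window was covered less, over 35.3% with vehicle and 41.3% with TCPOBOP. Its middle was covered over 20% and 48% there. The windows of the cyclin D genes Ccnd2 and Ccnd1, whose proteins activate CDK4 and CDK6, were covered over 36.7 to 100% and 14.7 to 84.0% in the 6 livers. Their middles were covered over 24.0 to 100% and 0 to 66.0%. The window of E2f1, a transcription factor held by RB, varied from 9.33 to 68.0%, and its middle from 0 to 100%. In the p53 arm, Mdm2 had no island in any list. The Trp53 window was covered over 26.0 to 54.0% in the 6 livers, but its middle 20 kb, the approximate place of the gene for p53, had 0% in all 6.

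Of the Polycomb genes, Ezh2, which encodes the methyltransferase that sets this mark, had no island in its window in any list. No mm9 annotation was used, so whether that approximate window holds the start of Ezh2 was not checked. Bmi1 encodes a subunit of Polycomb repressive complex 1 that is known to repress Cdkn2a. Its window was covered over 88.7, 74.0 and 84.0% with vehicle and 86.0, 72.0 and 93.3% with TCPOBOP, and its middle over 54.0 to 86.0%. Over the 8 lists Bmi1 was the pathway window closest to the locus in cover, at a mean absolute difference of 5.33 percentage points, followed by Ccnd2 at 13.2 and Cdkn1c at 19.6. None of these 3 was as even as the locus. Between livers, cover ranged over 0.667 percentage points at Cdkn2a and Cdkn2b, against 72.0 to 93.3% at Bmi1, 36.7 to 100% at Ccnd2 and 56.7 to 70.0% at Cdkn1c.

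**Figure D4:**
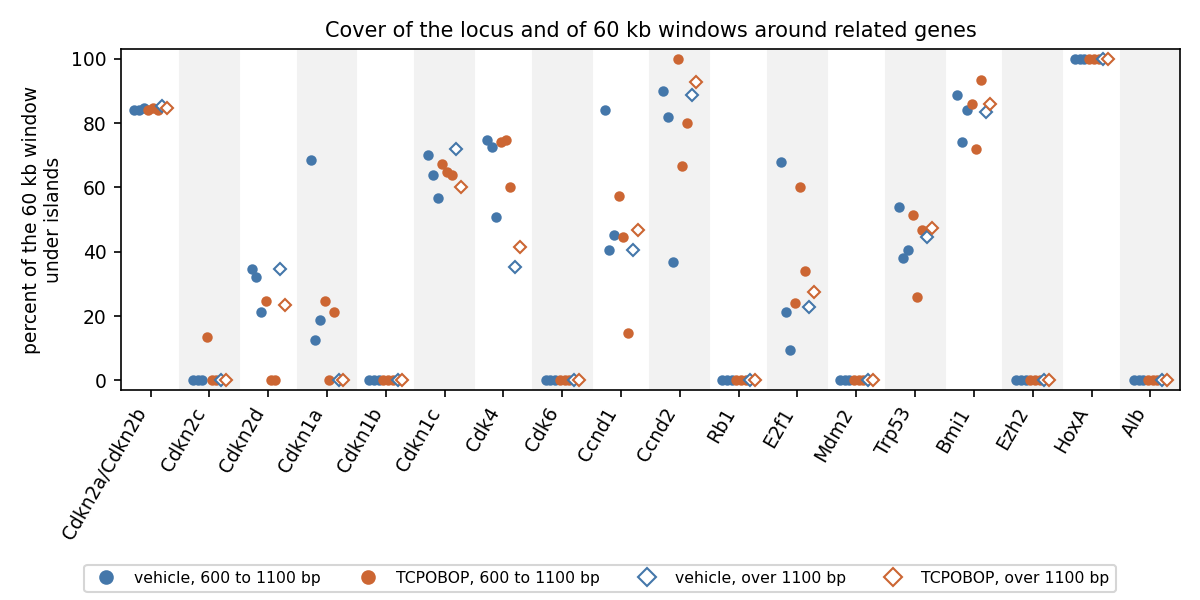
Percent of 60 kb under islands for the locus, the 15 pathway windows, and HoxA and Alb as references. Each point is a library (blue vehicle, orange TCPOBOP, circles 600 to 1100 bp, open diamonds over 1100 bp); the locus points lie between 84.0 and 85.3%, closer together than those of any other window with islands except HoxA.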

How the data were processed

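H3K27me3 ChIP-seq libraries of 6 mouse livers were used as 8 deposited island lists with a score per island, each called on its own library. Bowtie2 2.3.2, SICER 1.1 and the build mm9 appear, without roles, in the submitters' processing notes. The score is the authors' own value within a library. The file names carry a 400 bp window and a 2400 bp gap, and islands of a list lay at least 2800 bp apart. Whether an input was used is, in the sources used here, not given. Coordinates are 1-based mm9.

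Percent of a window under islands, island edges, width and within-list ranks were computed in Python 3.11.15 with numpy 2.4.6, and drawn with matplotlib 3.10.9. Treatments were compared by two-sided exact permutation of the difference of means (20 labellings), adjusted by Benjamini-Hochberg over 5 windows. Tiles of 60 kb ran to the last island of each chromosome. Cover, tile and separation counts were tested on simulated data.

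The locus, the lists and the windows were chosen with earlier results of these data known. Gene windows are approximate mm9 positions from general knowledge. Genes named are those of the fixed windows, their neighbours in the RefSeq gene order (GRCm38.p6), and the 3 pathway windows closest in cover. Promoter sequences are RefSeq, GRCm38.p6 (3 of 3 genes matched). The edge comparison, the middle 20 kb and the 10% strength limit were added after the data were seen.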

Additional observations from a re-analysis of the deposited data

How the results depend on the processing

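Differences are TCPOBOP minus vehicle. No alternative passed 0.05, which exact tests on 3 livers against 3 cannot do. The cover of the locus window and the width of its island differed by 0 when islands scoring under 84.6 were dropped, at equal covered length (174 Mb per list) and with the replicate block, and between -0.222 and 0.222 percentage points and -0.133 and 0.133 kb with 1 liver left out. The locus window gave -0.222 when the libraries sharing a ChIP sample were merged, and 0 at 40 and 100 kb. With 1 liver left out the lower part ranged from -0.381 to 0.381 and the upper part from -0.533 to 0.533, and merging gave -0.762 and 0.533. The lower flank, at 0.667, ranged from 0 to 1 with 1 liver left out, was 2.76 with that merge and 0 at 100 kb, which leaves out the island at its margin. The upper flank, at -3.24, ranged from -7.78 to -0.0444 with 1 liver left out, was -0.178 with that merge, and became 1.02 at equal covered length and 5.87 at 100 kb; the cause was not tested. The score rank difference, 0.335, ranged from -0.0316 to 1.03, negative without vehicle replicate 3 (-0.030) and without TCPOBOP replicate 3 (-0.0316), and became -1.41 at equal covered length, where fewer islands are ranked. By score per kb it was 1.06. Tiles that separated the treatments rose from 1.56 to 4.03% with vehicle higher and from 0.478 to 1.24% with TCPOBOP higher when only tiles with an island were counted. Regions with edges within 400 bp numbered 4 to 7 with 1 liver left out, among 1109 to 1653 regions compared. Why the count changed was not tested. Over tiles, deviations of livers with the same number had correlations of 0.0994, 0.0435 and 0.231. Livers with different numbers had 0.121, -0.201, -0.0473, -0.00141, -0.0724 and -0.176. Whether the numbers mark pairs was not tested. The main tests took the livers as unpaired, with the replicate block as an alternative. The replicate block kept the upper flank at -3.24 (exact sign-flip p = 0.5). Lists without read counts do not show how the mark changed inside an island.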
